A study of Mus musculus with 6 samples.

Results

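The 10 maternally methylated imprinting control regions of Peg3, Snrpn, Kcnq1ot1, Airn, Peg10, Mest, Plagl1, Grb10, Nnat and Impact were low in methylation in postnatal male germ cells, with and without Tex15. The mean over the 10 regions was 7.52% and 8.75% in the 2 wild-type pups, 4.87% and 6.40% in the 2 heterozygous pups, and 13.2% and 6.55% in the 2 knockout pups. No region passed the test for a difference between genotypes. The sequence 5 to 20 kb away from the same regions stood at 75.7 to 80.1% in the 6 samples. The 13.2% came from the knockout library of pup 3, where the Plagl1 region alone stood at 86.0% on 50 calls.

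The regions were defined by position on the mouse build mm9, without use of their measured values. Earlier results of these data were known when they were chosen. They hold 773 of the 10025464 cytosines in the deposited table, in 663 CpGs. Peg3 lies at chr7:6679000-6685000, Snrpn at chr7:67147000-67150500, Kcnq1ot1 at chr7:150480500-150482700 and Airn at chr17:12934000-12935700. Peg10 lies at chr6:4695000-4699500, Mest at chr6:30684900-30689000 and Plagl1 at chr10:12809000-12811000. Grb10 lies at chr11:11925000-11927500, Nnat at chr2:157385000-157388000 and Impact at chr18:13130000-13133500. Exons and introns at these mm9 positions were not analysed here. The regions hold between 31 CpGs (Airn) and 102 CpGs (Peg3), or from 9.14 CpGs per kb in Snrpn to 35.6 per kb in Grb10.

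An imprinting control region is a stretch of CpG-rich DNA whose methylation is set in only 1 of the parental germ lines and sets which parental copy of nearby genes is expressed. At maternally methylated regions the mark is laid down in oocytes, and body cells carry it on the maternal copy alone. Male germ cells erase the inherited marks before birth and then methylate most of their genome anew, while these regions remain free of methylation in sperm. A few paternally methylated regions, such as those of H19 and of Dlk1-Gtl2, gain their mark in the male germ line instead.

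The study measured DNA methylation by bisulfite sequencing, which reads methylated cytosines as C and unmethylated ones as T, and asked about retrotransposons in male germ cells without Tex15. Tex15 protein is found in germ cells and takes part in the silencing of retrotransposons by PIWI proteins. Cells positive for Oct4-GFP, a green fluorescent reporter of germ cells, were flow-sorted from male mouse pups of a mixed strain background at postnatal day 2.5, all from matings between Tex15+/- parents. The groups were Tex15WT (Tex15+/+, pups 8 and 9), Tex15HT (Tex15+/-, pups 7 and 18) and Tex15KO (Tex15-/-, pups 3 and 16), so n = 2 pups per group. Tex15WT and Tex15HT make up the 4 controls. The labels do not describe the Tex15 allele further, and no expression was measured, so neither the genotypes nor the sort could be checked against marker genes.

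Total calls per sample ranged from 27495658 to 52935635, where a call is 1 read of 1 cytosine. The Tex15KO 3 library stood apart: 74.4% of the cytosines had no call there, and those covered had a median of 8 calls. In the 10 regions it covered 190 of 773 cytosines (24.6%), against 687 to 757 in the other 5 samples, although its 1703 calls there were close in number to the 1706 of Tex15WT 8. Its Snrpn value rested on 1 cytosine, its Airn value on 5, its Peg3 value on 10 and its Plagl1 value on 11. Levels are therefore given for each pup. Mean differences that use Tex15KO, and the changes of Kcnq1ot1, Grb10 and Airn, are also given without that library. Where 2 values are given for a genotype, they stand in the order of pups 8 and 9, 7 and 18, and 3 and 16. A methylation level is the percentage of calls read as C. The intervals (95%, Wilson) cover counting error only, because PCR copies of a molecule could not be recognised.

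Some regions overlap promoters whose sequence shows which CpGs are in the deposited table. RefSeq promoters (GRCm38.p6) were given for 8 of the 10 genes with 14 start sites, all but Peg10 and Impact. CpG spacing placed 7 of these windows on the mm9 data, 5 of them inside a region, and the Mest starts 3 bp apart are shown once. Each line gives the 250 bases before the start site, 5′ to 3′ on the strand of the gene. Capitals mark the CpGs that had calls in the table.
Peg3, chr7:6730420-6730669, minus strand: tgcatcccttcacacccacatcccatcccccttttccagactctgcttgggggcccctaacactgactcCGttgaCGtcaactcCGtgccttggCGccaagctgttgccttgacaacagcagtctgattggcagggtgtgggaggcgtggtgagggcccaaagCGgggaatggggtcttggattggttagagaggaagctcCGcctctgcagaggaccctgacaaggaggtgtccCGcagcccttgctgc
Mest, chr6:30737800-30738049, plus strand: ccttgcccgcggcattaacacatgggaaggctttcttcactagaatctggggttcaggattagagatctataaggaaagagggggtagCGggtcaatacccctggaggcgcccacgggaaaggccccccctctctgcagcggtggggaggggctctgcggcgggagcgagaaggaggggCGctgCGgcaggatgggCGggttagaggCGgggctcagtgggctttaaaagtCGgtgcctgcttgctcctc
Plagl1, chr10:13090582-13090831, plus strand: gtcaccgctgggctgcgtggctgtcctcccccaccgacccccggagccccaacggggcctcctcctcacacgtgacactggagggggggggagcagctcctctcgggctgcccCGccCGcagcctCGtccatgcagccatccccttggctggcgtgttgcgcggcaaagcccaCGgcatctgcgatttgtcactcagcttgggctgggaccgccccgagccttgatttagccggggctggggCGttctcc
Nnat, chr2:157559828-157560077, plus strand: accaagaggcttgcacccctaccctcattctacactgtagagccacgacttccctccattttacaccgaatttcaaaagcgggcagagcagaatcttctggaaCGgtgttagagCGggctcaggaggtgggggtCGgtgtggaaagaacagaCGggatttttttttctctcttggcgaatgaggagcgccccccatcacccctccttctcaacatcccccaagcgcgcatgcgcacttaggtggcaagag

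These windows hold 8 CpGs in Peg3, 14 in Mest, 19 in Plagl1 and 12 in Nnat, against a median of 6 over all 32851 promoters of the same length. The deposited table holds 7, 6, 5 and 4 of them, in the same order. Every cytosine there has at least 3 calls in each genotype, so a CpG outside it may still have had reads. In the 4 controls, 4 of 96 calls were methylated in the Peg3 window (4.17%) and 4 of 45 in the Plagl1 window (8.89%). The Mest window had 0 methylated calls of 66 in the controls, which allows a level of up to 4.55%, and the Nnat window had 0 of 37, which allows up to 8.11%. Both promoters that hold the most calls, Peg3 and Mest, were thus read as unmethylated in nearly every control call. Tex15KO 16 had 6 methylated of 43 calls in the Peg3 window, 0 of 23 in Mest, 0 of 17 in Plagl1 and 2 of 13 in Nnat, and Tex15KO 3 had no call in these windows. The hexamer TGCCGC, the motif of the imprint-maintaining zinc finger protein ZFP57, was searched on both strands. It occurs at 2 places in the Mest window and 1 in the Plagl1 window, at none in the Peg3 and Nnat windows, and at least once in 8.68% of all promoters. A match is a description of the letters only.

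Among the regions of protein-coding genes, Peg3, which encodes a zinc finger protein, was at 7.81% and 11.6% in the wild types, 5.0% and 7.88% in the heterozygotes, and 17.2% and 9.12% in the knockouts. The Tex15KO 3 value came from 93 calls with an interval of 10.9 to 26.1%, and Tex15KO 16 lay within the range of the controls. Snrpn, which encodes a splicing factor and is the control region of the Prader-Willi domain, was at 1.30% and 7.22% in the wild types, 1.61% and 2.94% in the heterozygotes, and 0% and 3.29% in the knockouts. The 0% stands for 0 of 15 calls, which allows up to 20%, so the knockout samples could not be told from the controls at this depth.

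Mest, which encodes an enzyme of the hydrolase fold family, was at 1.98% and 5.0% in the wild types, 2.34% and 10.2% in the heterozygotes, and 8.68% and 4.58% in the knockouts. The highest sample was a heterozygote, and both knockouts lay between the lowest and the highest control. Nnat, which encodes a small membrane protein of brain and endocrine cells, was at 2.17% and 11.4% in the wild types, 10.5% and 8.91% in the heterozygotes, and 11% and 9.83% in the knockouts. Tex15WT 8 was low there and the other 5 samples lay close together. Impact, which encodes a regulator of translation, was at 5.53% and 12% in the wild types, 6.16% and 7.40% in the heterozygotes, and 0.612% and 9.09% in the knockouts. Here the knockouts lay far apart. Tex15KO 3 was under all 5 other samples on 327 calls (interval 0.168 to 2.20%), and Tex15KO 16 lay inside the control range. The Tex15KO 3 calls fell on 34 of 105 cytosines. Of these calls, 271 lay at chr18:13132001-13133000, where this library stood at 0.738% and the controls at 0 to 3.33%. At chr18:13130001-13131000 it had 0% on 52 calls, and the controls stood at 18.9 to 28.9%, but largely on other cytosines. Of the 52 calls, 16 each lay at 680 and 691 bp into the region, where no control had a methylated call. The others lay at 277, 410 and 436 bp, where some controls had methylated calls. The cytosines at chr18:13130071-13130086, at 83.3 to 100% in the controls, had no call in Tex15KO 3.

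Peg10, a gene derived from a retrotransposon and needed in the placenta, was at 17.4% and 11.5% in the wild types, 9.04% and 4.84% in the heterozygotes, and 4.79% and 5.68% in the knockouts. The wild-type samples were the highest, and the heterozygous and knockout samples overlapped. Plagl1, which encodes a zinc finger transcription factor that restrains growth, was at 21.3% and 17.8% in the wild types, 6.38% and 12% in the heterozygotes, and 86.0% and 7.69% in the knockouts. The 2 knockouts therefore lay on either side of most controls, with intervals of 73.8 to 93.0% in Tex15KO 3 and 4.72 to 12.3% in Tex15KO 16. Grb10, whose adaptor protein dampens growth factor signalling, was at 1.87% and 2.68% in the wild types, 4.78% and 4.79% in the heterozygotes, and 3.67% and 9.97% in the knockouts. Tex15KO 16 was above all 4 controls there and Tex15KO 3 was within their range.

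The remaining 2 regions are promoters of long noncoding RNAs that silence neighbouring genes. Kcnq1ot1, which silences the Kcnq1 domain, was at 6.85% and 8.28% in the wild types, 2.93% and 5.03% in the heterozygotes, and 0% and 1.59% in the knockouts. The knockout samples were both below all 4 controls, on 165 calls in Tex15KO 3, which allow up to 1.82%, and 252 calls in Tex15KO 16. The Tex15KO 3 calls fell on 19 of the 63 cytosines. Each minus-strand cytosine from 781 to 848 bp into the region held 14 of them, and no control had a methylated call at these cytosines. Calls so close together can come from the same reads, so the limit of 1.82% is too low. Airn, which silences Igf2r, was at 8.96% and 0% in Tex15WT, 0% in both Tex15HT samples, and 0% and 4.68% in Tex15KO. Its controls had 0 methylated calls in 3 of 4 samples, which on 104, 111 and 115 calls allows up to 2.88%, 2.70% and 2.61%. The 0% of Tex15KO 3 stands for 45 calls and allows up to 6.67%, so the samples with methylated calls were 1 wild type and 1 knockout.

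**Figure D1:**
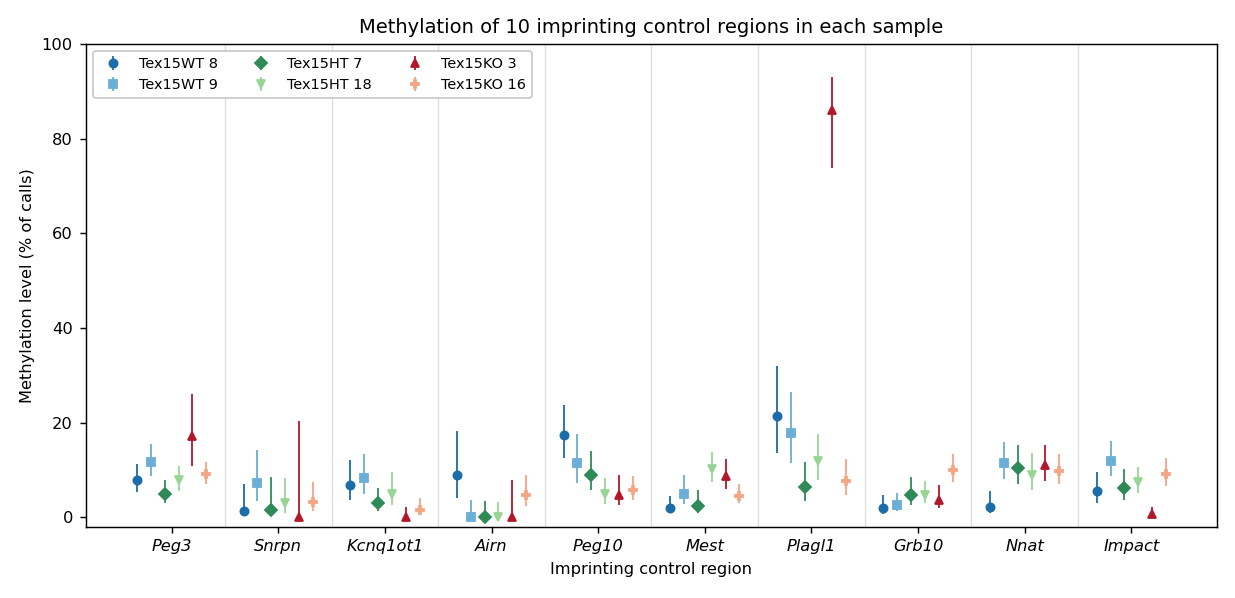
Methylation level of each of the 10 regions (percent of calls, y axis) in each of the 6 samples (points), with 95% Wilson intervals of counting error as bars. Nearly all points lie under 25%, and the Plagl1 point of Tex15KO 3 at 86.0% is the exception.

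Ordered by the mean of the 4 controls (± SD, n = 4), Plagl1 was highest at 14.4% ± 6.58 and Peg10 next at 10.7% ± 5.27. Nnat at 8.24% ± 4.17, Peg3 at 8.08% ± 2.73 and Impact at 7.77% ± 2.92 followed, and Kcnq1ot1 stood at 5.77% ± 2.32. Mest at 4.89% ± 3.82, Grb10 at 3.53% ± 1.49, Snrpn at 3.27% ± 2.73 and Airn at 2.24% ± 4.48 were lowest. Each region lay within 1 SD of its neighbours in this order. In the 4 controls 8, 5, 9 and 8 of the 10 regions were under 10%, and in Tex15KO 3 and Tex15KO 16 this held for 7 and 10.

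The comparison between genotypes asks whether methylation of these regions changes when Tex15 is missing. The quasi-likelihood test of edgeR on methylated and unmethylated counts, with adjustment over the 10 regions and 330092 tiles of 1 kb, called 0 of 10 regions (adjusted p under 0.05) in Tex15KO against Tex15WT, where 0.00969% of tiles were called. It also called 0 of 10 in Tex15KO against the mean of the other 2 genotypes (0.0385% of tiles called), in Tex15KO against Tex15HT (0.00576%) and in Tex15HT against Tex15WT (0.00121%). At an unadjusted p under 0.05 edgeR counted 1 of 10 regions in each comparison. Of the 330092 tiles, 4174 were lower and 4786 higher at that threshold in Tex15KO against Tex15WT. The same counts were 5713 and 4635 against the mean of the other genotypes, and 4189 and 3103 against Tex15HT. They were 617 and 1155 in Tex15HT against Tex15WT. By limma on log2 ratios 0 regions were called, with 1, 1, 0 and 0 of 10 at an unadjusted p under 0.05. Its lower and higher tiles, in the same order, numbered 9235 and 18867, 12186 and 19399, 9510 and 11384, and 1453 and 3721. These comparisons share control samples. Without Tex15KO 3, edgeR again called 0 of 10 regions in each comparison, where 0.115%, 0.195%, 0.0927% and 0% of tiles were called. The lone knockout library of that fit was assumed to vary like the other groups.

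Kcnq1ot1 was the region that edgeR counted at an unadjusted p under 0.05 in both of the first comparisons. Its level was 0.794% ± 1.12 in Tex15KO, 3.98% ± 1.49 in Tex15HT and 7.57% ± 1.01 in Tex15WT (SD, n = 2 each), with an edgeR unadjusted p of 0.0191 and adjusted p of 0.998 against Tex15WT. Against the mean of the controls its edgeR unadjusted p was 0.0268, and it was not called. Its log2 ratio change was -3.30 against Tex15WT and -2.80 against that mean. Without Tex15KO 3 these changes were smaller, at -2.30 and -1.79. In the same fit Grb10, higher in Tex15KO 16, changed by 2.22 against Tex15WT, 1.67 against that mean and 1.13 against Tex15HT. Airn changed by 0.419, 2.97 and 5.52 in these comparisons. Kcnq1ot1 was also the 1 region of 10 in which both Tex15KO samples lay below all 4 controls, and in 0 of 10 regions did both lie above. Among the tested tiles 4.32% had both Tex15KO samples below and 8.24% had both above. Among the 37363 tiles under 20% in the controls, these shares were 5.14% and 5.04%, and 1 and 0 of 10 regions stand near this background. Airn was the region at an unadjusted p under 0.05 in the other 2 comparisons, with 0 methylated calls in both Tex15HT samples.

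Taken as a mean over the 10 regions, Tex15WT was at 8.14% ± 0.869, Tex15HT at 5.64% ± 1.08 and Tex15KO at 9.87% ± 4.70 (SD, n = 2 each). Tex15KO differed from Tex15WT by 1.73 percentage points (two-sided exact permutation test, p = 1) and from the 4 controls by 2.99 points (p = 0.333). Tex15KO exceeded Tex15HT by 4.24 points (exact permutation p = 0.333), and Tex15HT minus Tex15WT was -2.5 points (p = 0.333). With 2 samples against 2 the smallest p these permutations can give is 0.333, and with 2 against 4 it is 0.0667. The directions of the first 2 differences rested on 1 library and 1 region: without Tex15KO 3 the difference from Tex15WT was -1.59 points and that from the controls -0.336, and without Plagl1 they were -1.10 and -0.290. The difference from Tex15WT also turned, to -0.184 points, when calls were pooled over the regions. Tex15KO minus Tex15HT stayed above 0 in these 2 cases, at 0.915 points without Tex15KO 3 and 0.523 without Plagl1. It fell below 0 with cytosines of at least 5 calls and with 500 bp trimmed from each end. Leaving out Tex15KO 16 instead, edgeR called 3 regions against Tex15WT, namely Plagl1 (adjusted p = 0.00611), higher in Tex15KO 3, and Impact (0.0352) and Kcnq1ot1 (0.0391), both lower. In that fit 4.78% of all tiles were called, so calls were more frequent throughout the genome, and the lone knockout library was assumed to vary like the other groups. Against the mean of the controls it called the same 3 regions (6.7% of tiles called), and against Tex15HT it called Plagl1 alone (4.77%).

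The Plagl1 value of Tex15KO 3 came from few cytosines. On the minus strand, 9 cytosines at chr10:12810659-12810702, a span of 44 bp, each had 4 calls, and 36 of 36 calls were methylated. The same 9 cytosines were at 0% in all 4 controls and at 42.1% in Tex15KO 16. There the first 8 of them had 8 methylated of 17 calls, 1 at each cytosine. A read is 75 nt long, so all calls of such a stretch can come from the same reads. Elsewhere in Plagl1 this library had only 2 covered cytosines, both near the region's start, with 0 of 7 and 7 of 7 calls methylated. In the controls Plagl1 was high at other places, with 8 of 9 calls methylated at chr10:12810340-12810373 in Tex15WT 8 and 0% there in the other 3 controls.

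**Figure D2:**
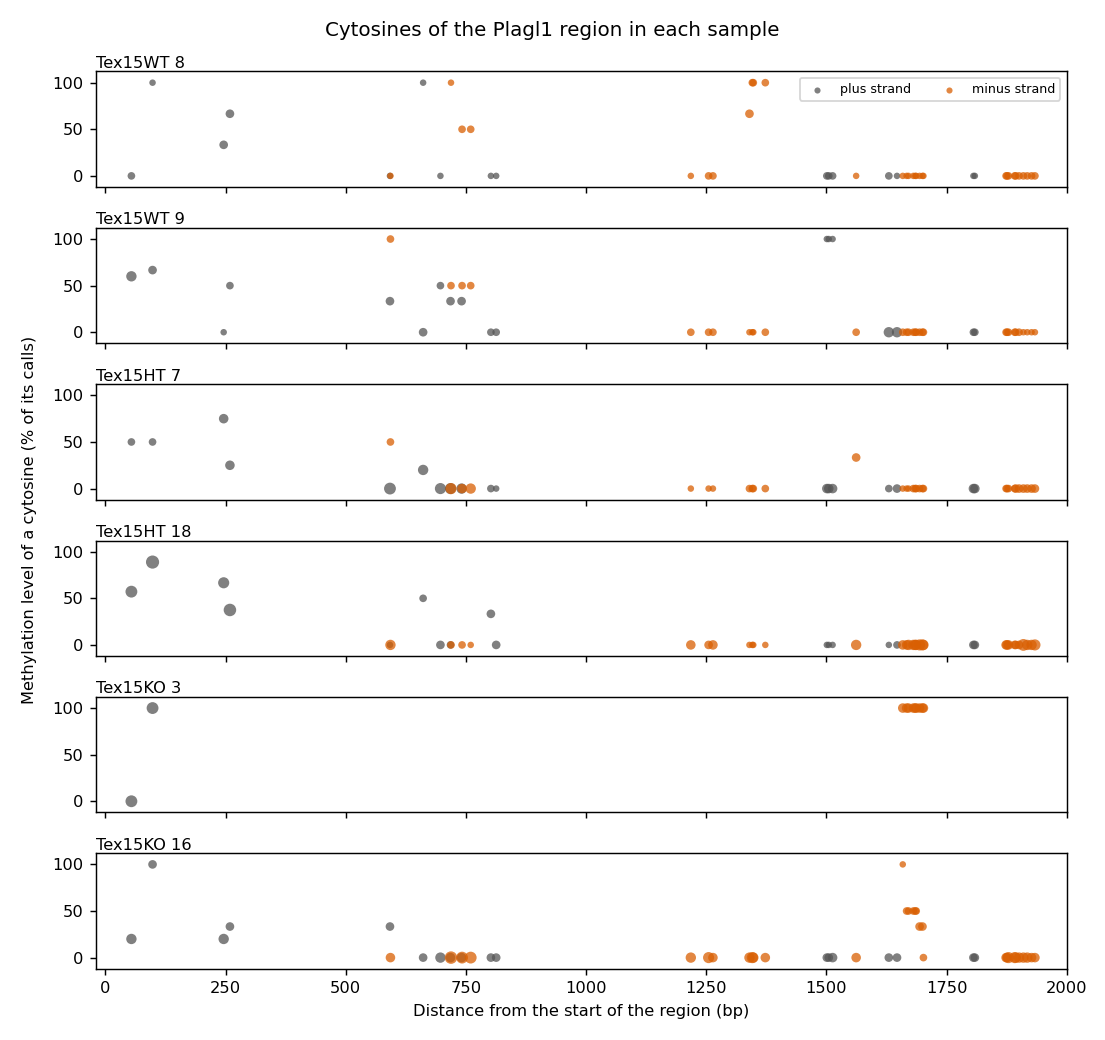
Methylation level of each covered cytosine of the Plagl1 region (y axis, percent of its calls) against its distance from the start of the region in bp (x axis), with 1 panel per sample, colour for the strand and larger points for more calls. Tex15KO 3 has 11 points, of which 9 form the fully methylated stretch on the minus strand.

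Methylated calls in the other regions also came in short stretches of 1 strand. A stretch was counted where 3 or more successive cytosines, each up to 50 bp from the last, all had a methylated call. The wild types had 9 and 20 stretches, the heterozygotes 8 and 12 and the knockouts 1 and 16, which held 56.2%, 53.9%, 37.4%, 42.0%, 26.7% and 52.2% of the methylated calls of the 6 samples. Peg3 had 14 of them over all samples, Nnat 9, Impact 8, Peg10, Mest and Plagl1 7 each, Grb10 6, Kcnq1ot1 4, and Snrpn and Airn 2 each.

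Single stretches set several of the region levels. In Airn of Tex15WT 8, all 6 methylated calls lay at 6 cytosines of chr17:12935068-12935111, with 1 call each, and these cytosines were at 0% in the other controls. In Grb10 of Tex15KO 16, the stretch at chr11:11926102-11926175 held 18 methylated of 63 calls, while the controls were at 0 to 5.88% there. In Peg10 of Tex15WT 8, chr6:4698483-4698629 held 23 methylated of 34 calls, and the level there was 0% in Tex15WT 9, 44.4% in Tex15HT 7, 12.1% in Tex15HT 18 and 0% in both Tex15KO samples. In Nnat, the cytosines from chr2:157386133 were methylated in a stretch of 11 in Tex15HT 18 (12 of 46 calls). In Tex15KO 16 the stretch was of 9 (9 of 9 calls, 1 at each cytosine). At these 9 cytosines Tex15KO 3 and Tex15WT 8 were at 0% and Tex15WT 9 at 9.09%, and Tex15HT 7 had no call.

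The link between neighbours was present in every sample. For pairs of successive cytosines of 1 strand up to 50 bp apart, the second had a methylated call in 84.2%, 76.4%, 63.0%, 76.1%, 61.5% and 72.8% of the pairs whose first had one, in the order Tex15WT 8, Tex15WT 9, Tex15HT 7, Tex15HT 18, Tex15KO 3 and Tex15KO 16. Where the first had none, the share was 2.55%, 6.01%, 3.52%, 4.70%, 4.39% and 5.70%. Such pairs share reads, so they describe the libraries and were not tested. Most covered cytosines had no methylated call at all, from 80.0% in Tex15WT 9 to 89.3% in Tex15WT 8, with 80.3% in Tex15KO 16 and 87.9% in Tex15KO 3.

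**Figure D3:**
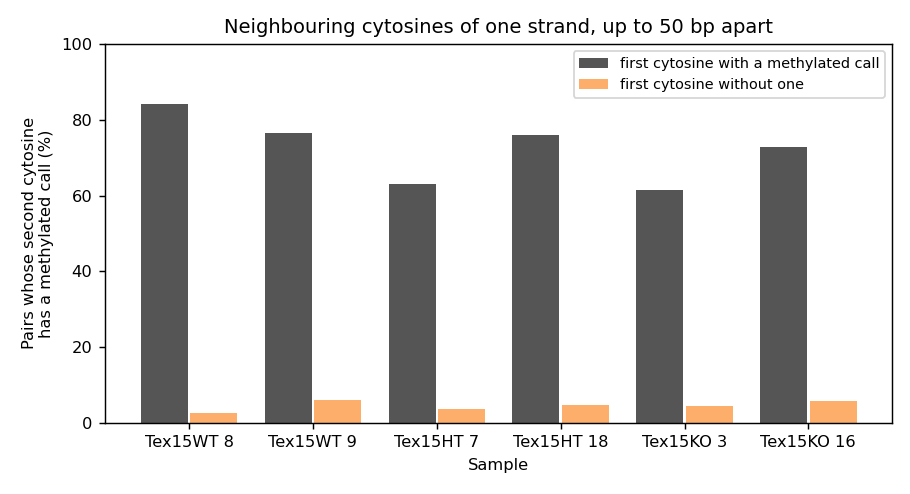
Share of cytosine pairs in the 10 regions whose second cytosine has a methylated call (y axis, percent of pairs) in each sample (x axis), for pairs whose first cytosine has one (dark bars) or has none (light bars). The dark bars lie between 61.5 and 84.2% and the light bars between 2.55 and 6.01%.

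Methylation changed sharply at the borders of the regions. Taken over all 10 regions, the sequence 10 to 20 kb outside was at 77.1 to 80.1% in the 6 samples, and the last 0.5 kb outside was at 25.9 to 36.9%. The first 0.5 kb inside was at 10.2 to 24.3% and the next 0.5 kb at 0.875 to 9.44%. The part over 1 kb inside, which leaves out the short Airn and Plagl1 regions, was at 3.23 to 7.03%. Tex15KO 3 departed from the others at 3 to 5 kb outside, with 29.6% against 53.4 to 59.5%, and in the first 0.5 kb inside, with 24.3% against 10.2 to 16.9%. At 0.5 to 1 kb inside, Tex15KO 3 and Tex15KO 16 were at 0.875% and 2.25% and the 4 controls at 4.43 to 9.44%, a class chosen after its values were seen and not tested. Some ends of the regions were highly methylated: the first 500 bp of Impact stood at 58.1% in the pooled controls, those of Plagl1 at 56.5%, and the last bin of Peg3, from position 6684500, at 76.2%. For Plagl1 the other end was low, and its control mean rose from 14.4% to 20.2% with 500 bp trimmed from both ends. These 3 bins had under 10 calls in at least 1 control and were chosen after their values were seen.

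**Figure D4:**
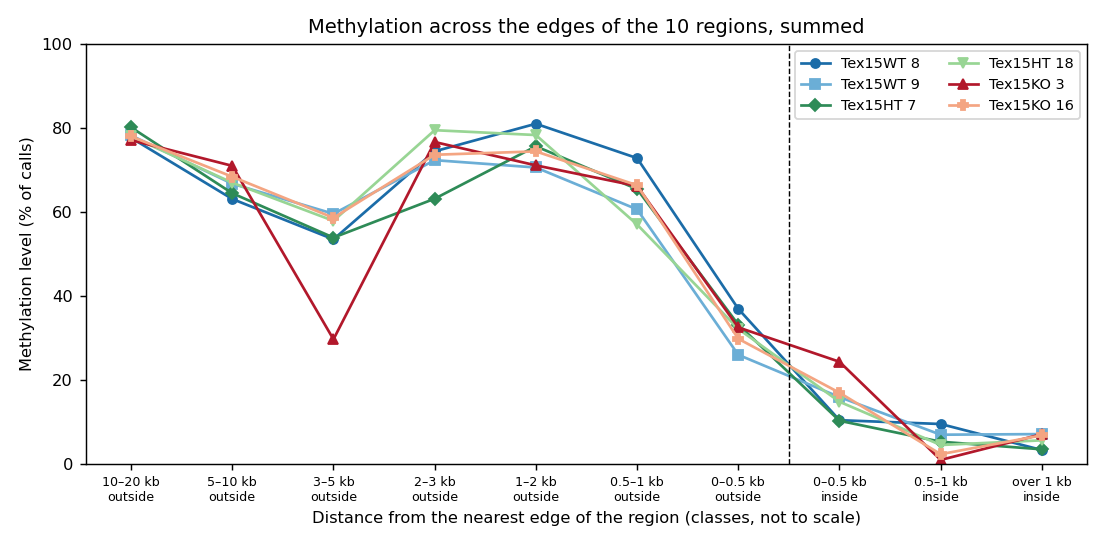
Methylation level (y axis, percent of calls) of cytosines in classes of distance from the nearest edge of the 10 regions (x axis, not to scale; the dashed line marks the edge), with 1 line per sample. All 6 lines fall from over 70% far outside to under 10% more than 0.5 kb inside. The class over 1 kb inside leaves out Airn and Plagl1.

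Of the 68 bins of 500 bp in the regions, 42 had at least 10 calls in each control, 35 of these were at or under 10% in the pooled controls, 4 were over 15% and 0 were over 25%. The lowest such bins were 1 of Snrpn and 2 of Airn, with 0 methylated calls of 77, 75 and 64, which allow up to 3.90%, 4% and 4.69%. The next was Mest 30687900-30688399, which holds 47 cytosines and stood at 0.229% on 436 control calls. In that Mest bin Tex15KO 3 had 0% on 200 calls and Tex15KO 16 had 1.27% on 236. The highest were the Peg10 bin at 4698500-4698999 (18.5%), the Mest bin at 30684900-30685399 (18.4%) and the Plagl1 bin at 12810000-12810499 (15.7%). The Plagl1 bin was at 57.1% in Tex15WT 8 and at 0% in the other controls and in Tex15KO 16. The highest Nnat bin, at 157387500-157387999, was at 16.7% and 21.1% in the wild types, 9.68% and 14.3% in the heterozygotes, and 50% and 34.1% in the knockouts, so both knockouts were above the controls on 42 and 44 calls. All 42 calls of Tex15KO 3 lay at 2 cytosines, which gave 13 of the 15 methylated calls of Tex15KO 16 and had no call in Tex15WT 9 and Tex15HT 18. At the other 6 cytosines of the bin, Tex15KO 16 had 2 methylated of 24 calls (8.33%) and the controls stood at 0 to 21.1%.

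On the genome-wide grid of 1 kb tiles, 45 tiles touched a region and 23 of them, in 9 regions, had enough calls to be tested. edgeR called 0 of the 23 in any comparison. In 2 tiles, in Kcnq1ot1 and Peg10, the controls all exceeded both knockouts, and in 2, in Mest and Nnat, both knockouts exceeded the controls. These shares were 4.32% and 8.24% of all tested tiles, and 5.14% and 5.04% of tiles under 20% in the controls. In Tex15KO 3 the Mest tile had 24 calls, and its methylated calls lay at 2 cytosines (2 of 2 and 10 of 10). Its 42 calls in the Nnat tile lay at the 2 cytosines of the bin above. The Peg10 tile at chr6:4698001-4699000 was at 25.6% and 16.4% in the wild types and 8.25% and 3.01% in the heterozygotes. It was at 0% in both Tex15KO samples, on 127 and 158 calls. If each call were independent, these would allow up to 2.36% and 1.90%. The knockouts were thus the lowest and the wild types the highest in this tile, which was chosen after its values were seen. Its edgeR adjusted p was 0.205 against Tex15WT and 0.207 against the mean of the controls.

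The same libraries show how the regions compare with other sequence. The flanks 5 to 20 kb from the regions were at 75.8%, 75.7%, 77.7%, 77.1%, 80.1% and 77.8% in the 6 samples, in the order given for the pairs. Regions minus flanks averaged -69.5 points, with the regions lower in 6 of 6 samples (two-sided exact sign-flip permutation test, p = 0.0312, the smallest p that 6 samples can give). The test compares sequence within a library and says nothing about genotype.

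The 2 paternally methylated regions were high in the same cells. H19, between cytosines chr7:149766025-149768424, was at 97.8% and 60.0% in the wild types, 89.5% and 100% in the heterozygotes, and 96.9% and 92.6% in the knockouts, where Tex15WT 9 was low on 45 calls. The region between Dlk1 and Gtl2, chr12:110764550-110768345, was at 95.6% and 91.0% in the wild types, 97.1% and 91.2% in the heterozygotes, and 98.8% and 93.0% in the knockouts. The mean of the 10 regions minus that of these 2 averaged -84.1 points and was below 0 in 6 of 6 samples (exact sign-flip permutation p = 0.0312). Tex15WT 9 had the lowest mean over the paternally methylated regions, 75.5%, beside 8.75% over the maternally methylated ones.

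Against other CpG-dense sequence the regions were not clearly lower. The 21369 tiles of 1 kb with 20 or more CpGs were at 16%, 16.1%, 15.7%, 15.8%, 12.9% and 14.7% of calls, and the 10 regions minus these tiles averaged -7.34 points, below 0 in 5 of 6 samples (exact sign-flip permutation p = 0.0625). Tex15KO 3 was the exception, with 13.2% in the regions. With each covered cytosine weighing the same, the dense tiles stood at 5.57 to 6.88% and the regions stood at 5.06 to 13.8%, so that the regions were higher by 2.16 points (exact sign-flip permutation p = 0.125). The direction of this comparison thus turned with how calls were weighed.

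**Figure D5:**
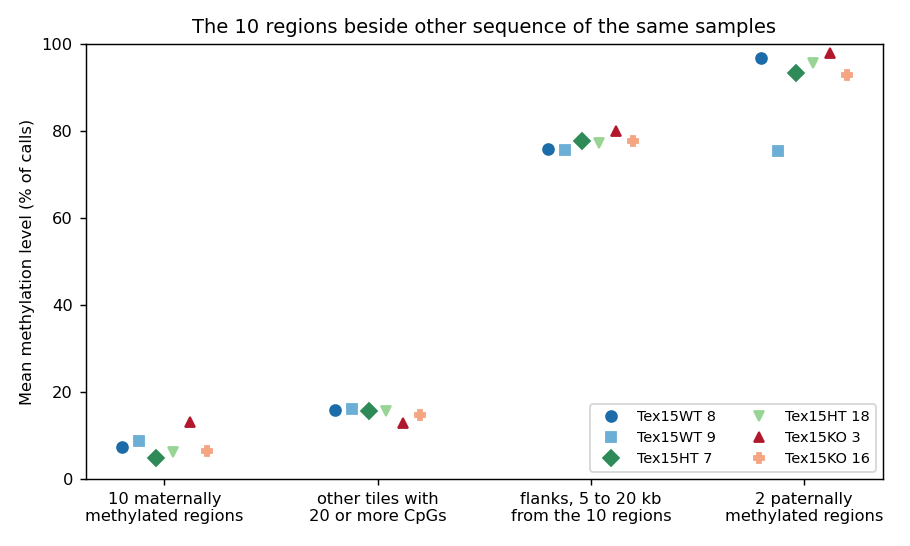
Mean methylation level (y axis, percent of calls) of the 10 maternally methylated regions, other CpG-dense tiles, the flanks of the 10 regions and the 2 paternally methylated regions (x axis), with 1 point per sample. The regions lie at 4.87 to 13.2%, the flanks at 75.7 to 80.1% and the paternally methylated regions at 75.5 to 97.8%.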

How the data were processed

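Bisulfite libraries of sorted germ cells of 6 pups were compared, grouped by the genotype label; the pup is the replicate. The authors deposited raw counts: per the file headers, the coverage and the C and T calls at each CpG cytosine, with strands apart. The submitters' processing notes name methylKit, BSMAP and Bismark and the build mm9. The roles and versions of these tools, any duplicate removal and the lambda conversion rate are not given in the sources used. In the files coverage was C plus T calls at all cytosines, and each genotype had at least 3 calls at every cytosine.

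Calls were summed per region, without a minimum per cytosine. Tiles of 1 kb and the 10 regions, with at least 3 CpGs and 10 calls in each sample, entered 1 fit of edgeR 4.0.16 (R 4.3.3) over all 6 samples with an intercept per sample and Benjamini-Hochberg adjustment over all of them; the prior degrees of freedom came out infinite, which means that all tiles shared 1 spread. An alternative was limma 3.58.1 on log2((C + 1)/(T + 1)). The edgeR and limma fits were tested on simulated data. Mean levels were tested by exact permutation over samples. Named were all 10 regions and, in each, the 500 bp bin of highest and lowest control level. RefSeq promoters were placed by CpG spacing within 50 kb of a region, needing at least 6 matching CpGs. The members and lists were chosen with earlier results of these data known. The H19 and Dlk1-Gtl2 intervals were set from general knowledge of mm9.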

Additional observations from a re-analysis of the deposited data

How the results depend on the processing

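No paired analysis was possible because the labels number the pups and the groups share no number. Tex15KO minus Tex15WT (mean of the 10 regions) turned to -0.184 points with pooled calls, -1.11 with cytosines of at least 5 calls, -1.63 with 500 bp trimmed from each end and -1.10 without Plagl1, an alternative chosen after seeing the data. Leaving out 1 sample gave -1.59 to 5.06, the lowest without Tex15KO 3. Tex15KO minus the 4 controls turned to -1.18 with at least 5 calls, -1.35 trimmed and -0.290 without Plagl1, with -0.336 to 6.31 leaving out 1 sample. Tex15KO minus Tex15HT turned to -1.26 with at least 5 calls and -1.06 trimmed, with 0.915 to 7.56 leaving out 1 sample. Tex15HT minus Tex15WT turned to 0.152 with at least 5 calls, and was -3.27 to -1.74 leaving out 1 sample. The trimmed means used 8 regions (without Airn and Plagl1), as did those with at least 5 calls (without Kcnq1ot1 and Plagl1); further causes were not tested.

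The difference from CpG-dense tiles was -8.06 points pooled, -13.8 with at least 5 calls and -10.4 trimmed (exact sign-flip permutation p = 0.0312 each), but 2.16 per cytosine, and -8.86 to -6.64 leaving out 1 sample. The differences from flanks (-70.0 to -68.8) and from paternally methylated regions (-87.5 to -83.0) kept their direction leaving out 1 sample, where the exact permutation test of 5 samples cannot go below p = 0.0625. The latter was not run at 5 calls. Counts of called regions ranged over 0 to 3 against Tex15WT and against the mean of the controls, 0 to 1 against Tex15HT and 0 to 0 for Tex15HT against Tex15WT; all above 0 were without Tex15KO 16, where 4.78%, 6.7% and 4.77% of all tiles were called in the first 3. With 30 calls Snrpn, and with 5 calls per cytosine Snrpn, Kcnq1ot1, Peg10 and Plagl1, could not be tested. Cytosines of the top 0.1% of coverage held no member. Of 220 alternative values for single regions, 160 moved by less than 1 SD of the replicates and 60 by more. Depth limits all values: the median covered cytosine had 2 to 4 calls outside Tex15KO 3.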

Other observations

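A pair of RefSeq promoters of the same genes could be placed outside the regions. The start of Grb10 placed there, whose 250 bases hold 40 CpGs, had 0 methylated of 74 control calls on 9 CpGs, which allows up to 4.05%, and 0 of 34 in Tex15KO 16. The upstream start of Mest, with 7 CpGs, had 8 methylated of 64 control calls (12.5%), of which Tex15WT 8 gave 4 of 7, and 4 of 28 in Tex15KO 16. Tex15KO 3 had no call in either window.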
